A study of Mus musculus with 6 samples.

Results

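Adrenomedullin, the endothelins and the natriuretic peptides are secreted vasoactive peptides, and 10 of their genes were followed here in mouse carotid body and adrenal medulla: the peptide genes Adm, Edn1, Edn3, Nppa, Nppb and Nppc and the receptor genes Ednra, Ednrb, Npr1 and Npr3. Members were found as the probe sets whose platform annotation names one of these genes alone. Of the 10 genes, 9 had such a probe set, 17 in all, among 18193 named genes and 45037 probe sets on the array. No probe set carried Ednra alone, and Ednra is not analysed here. The samples were 3 pools of carotid body, the organ at the carotid fork that senses low blood oxygen, and 3 pools of adrenal medulla, the inner adrenal whose chromaffin cells secrete catecholamines. All came from untreated adult C57/BL6 mice with no stated genetic change. A carotid body pool held 18 organs and an adrenal pool 10 medullas, each taken from 10 mice, so that no array stands for a single animal. The comparison asks which of these genes differ between an oxygen-sensing organ and a related organ of neural crest origin, and cohort numbers 1 to 3 mark pools that share a cohort of animals.

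Adrenomedullin is a vasodilator peptide whose gene is a well known target of hypoxia-inducible factors. Its receptor is the Calcrl protein joined by a Ramp protein: Ramp2 or Ramp3 gives an adrenomedullin receptor, and Ramp1 gives the receptor of calcitonin gene-related peptide (CGRP). Endothelins are cut from precursors by the converting enzymes Ece1 and Ece2 and act on the receptors Ednra and Ednrb; endothelin-1, from Edn1, is a vasoconstrictor made largely by endothelium, and endothelin-3, from Edn3, acts mainly through Ednrb and is needed by migrating neural crest cells. Atrial and B-type natriuretic peptides, from Nppa and Nppb, act on Npr1, a receptor that makes cyclic GMP, C-type peptide, from Nppc, acts on Npr2, and Npr3 clears all of them. Endothelin-1, natriuretic peptides and adrenomedullin have each been studied in carotid body chemoreception and in adrenal secretion.

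The promoter windows of the 3 genes with the largest called differences are shown so that a reader can see the sequence next to each start site. They are the 250 bases before the RefSeq start (build GRCm38.p6, plus strand, 5′ to 3′), and capitals mark matches to a searched word on either strand.
Adm, chr7:110627407-110627656: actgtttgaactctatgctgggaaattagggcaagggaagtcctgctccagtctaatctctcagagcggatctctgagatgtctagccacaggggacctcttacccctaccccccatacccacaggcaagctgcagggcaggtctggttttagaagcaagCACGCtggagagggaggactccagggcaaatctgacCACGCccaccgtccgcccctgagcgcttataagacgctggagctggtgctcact
Edn1, chr13:42301226-42301475: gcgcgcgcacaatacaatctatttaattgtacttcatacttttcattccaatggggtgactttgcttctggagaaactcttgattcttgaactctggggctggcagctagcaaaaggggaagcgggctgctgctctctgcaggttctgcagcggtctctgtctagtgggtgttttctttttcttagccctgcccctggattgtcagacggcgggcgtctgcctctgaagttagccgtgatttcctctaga
Edn3, chr2:174760369-174760618: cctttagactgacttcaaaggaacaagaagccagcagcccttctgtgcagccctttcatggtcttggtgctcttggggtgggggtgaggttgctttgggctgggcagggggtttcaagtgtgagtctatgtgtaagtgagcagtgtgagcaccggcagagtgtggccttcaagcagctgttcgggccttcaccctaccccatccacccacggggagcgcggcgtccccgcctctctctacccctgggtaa
The words were ACGTG and GCGTG for the core of the hypoxia response element, AGATAA and TGATAA for GATA factors, TGACTCA and TGAGTCA for AP-1, and TATAAA for the TATA box; none of these words contains another, and ACGTG overlaps its own reverse complement in CACGTG. The Adm window held the core GCGTG on the reverse strand at 2 places, beginning 90 and 54 bases before the start. The Edn1 and Edn3 windows held 0 matches to any of these words. The hypoxia core was present in 38.6% of 32817 RefSeq promoter windows of the same length, so that a match in 1 window is common. Among the members, the windows of Ednrb, Nppc and Npr1 also held the hypoxia core, and that of Nppc a TATA box. The Nppb window held 2 GATA words and a TATA box, and that of its chromosomal neighbour Nppa held 1 GATA word and a TATA box; GATA words were present in 16.6% of all windows and TATAAA in 12.4%. All 10 genes had a window. For Ednrb, Nppb, Npr1 and Npr3 the start site used lay inside the annotated gene and not at its outer end. The Ednrb and Npr3 windows lay wholly within their genes, and those of Nppb and Npr1 partly.

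Of the 9 genes, each read by its brightest probe set, 2 were higher in carotid body, Edn1 and Adm, and 2 were higher in adrenal medulla, Edn3 and Nppb. The endothelin ligands went opposite ways: Edn1 RNA was 5.14-fold higher in carotid body and Edn3 RNA 12.9-fold higher in adrenal medulla. The other 5, Ednrb, Nppa, Nppc, Npr1 and Npr3, did not pass the test. Calls required at least 2-fold and an adjusted p below 0.05 in limma, with Benjamini-Hochberg adjustment over all probe sets. Under this rule 12.0% of all 18193 genes were called, 5.91% toward carotid body and 6.08% toward adrenal medulla. The median difference was -0.01 (log2, carotid body minus adrenal medulla) over the 9 genes and -0.04 over all genes. Over probe sets, 2 of 17 were called toward carotid body, beside 5.95% of all probe sets. Toward adrenal medulla 5 of 17 were called, 4 of them for Edn3 and 1 for Nppb, beside 4.58% of all probe sets. In either direction 10.5% of all probe sets were called. The 2 tissues did not overlap in 4 of the 9 genes, beside 43.9% of all genes, and in 9 of the 17 probe sets, beside 40.2%.

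**Figure D1:**
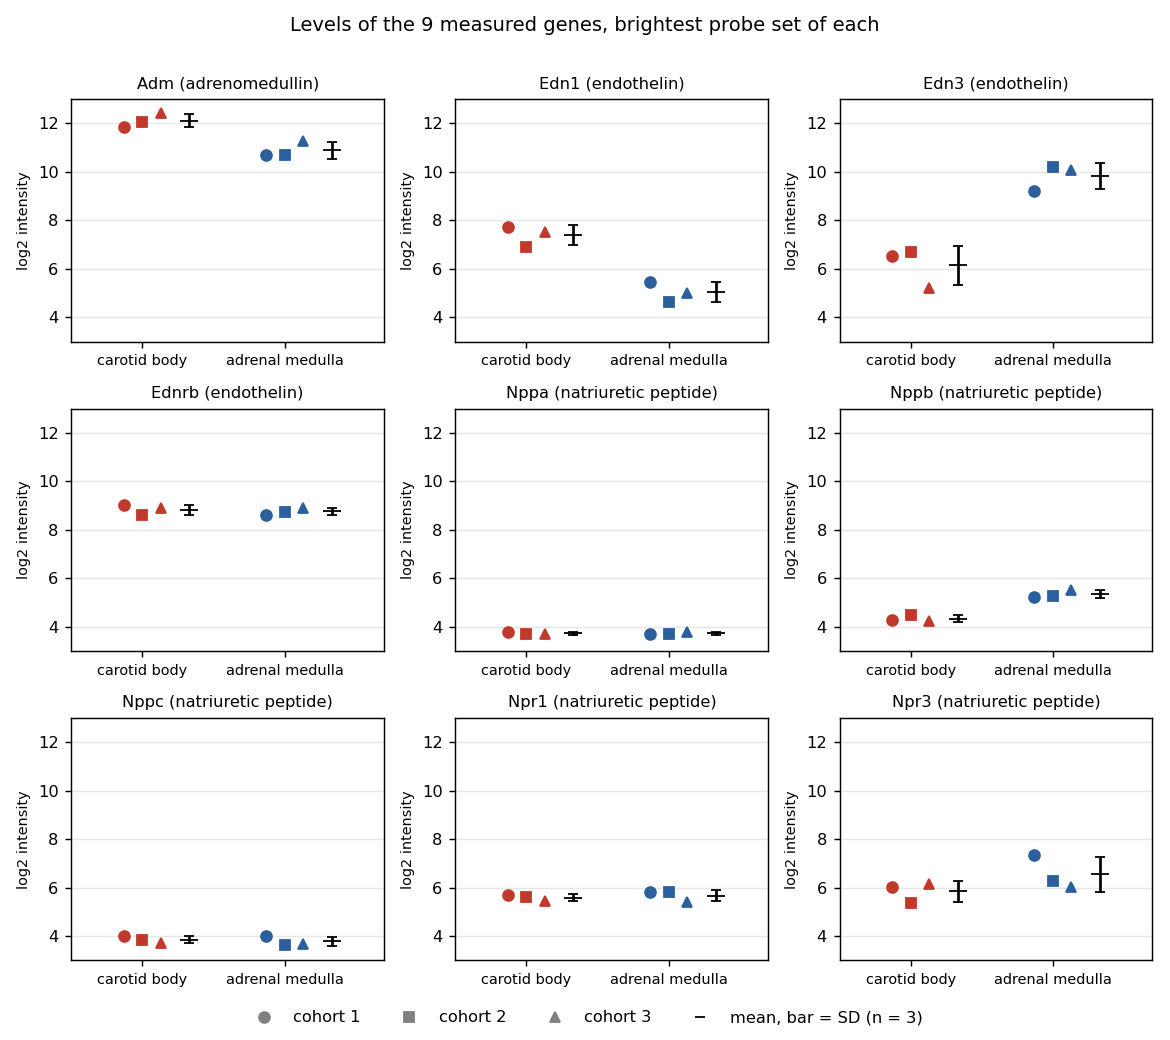
Log2 intensity (vertical axis) of the 9 measured genes on each of the 6 arrays, with symbols for the 3 cohorts and, at the right of each tissue, the mean with its SD (n = 3). The tissues separate for Adm, Edn1, Edn3 and Nppb; Nppa and Nppc lie near the lower end of the scale in both.

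Several features of the pools bear on every value. Steroid-producing cortex markers had a summed level (log2 of their summed linear intensities) of 15.83 to 16.27 in the adrenal medulla pools, so that these held cortex RNA. In carotid body the same sum was 14.49 in array 1 and 9.54 and 9.36 in arrays 2 and 3. Carotid body array 1 therefore also held cortex RNA and stands apart. The catecholamine cell markers were present in both tissues, at 14.79 to 15.03 in carotid body, against 16.10 to 16.44 in adrenal medulla. Calls toward carotid body covered 9 of 10 smooth muscle and pericyte markers, 7 of 7 fibroblast markers and 6 of 6 glial markers. They covered 2 of 10 endothelial and 2 of 5 macrophage markers, beside 5.91% of all genes. The summed endothelial level was still 12.45 to 12.77 in carotid body, against 11.73 to 12.04 in adrenal medulla, without overlap. For macrophage markers the sum was 12.21 to 12.37, against 11.20 to 11.59. The X-linked transcript Xist was at 8.84 to 10.96 in carotid body, against 4.45 to 5.60 in adrenal medulla, so that sex composition and tissue cannot be told apart. Pools with the same cohort number differed in Xist too, so that within-cohort differences are not shown to pair the same animals. The 3′ minus 5′ difference of the Gapdh control, which rises as RNA degrades, was 0.59 to 1.45 in carotid body, against 0.13 to 0.61 in adrenal medulla. In pooled tissue, fewer cells of a type and less RNA per cell cannot be told apart.

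**Figure D2:**
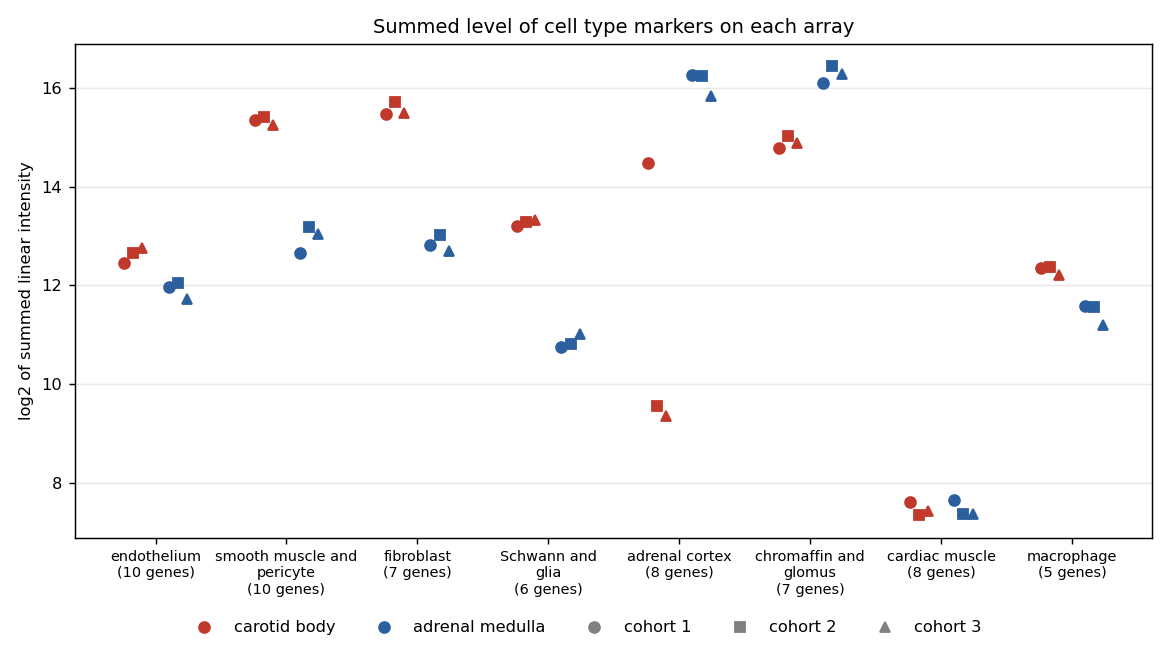
Summed level of 8 lists of cell type markers (log2 of the summed linear intensity, vertical axis) on each array, by tissue and cohort. Cortex markers are at 14.49 in carotid body array 1 and under 9.6 in the other carotid body arrays. Endothelial, smooth muscle and pericyte, fibroblast, glial and macrophage sums are higher in every carotid body array than in any adrenal medulla array. Cardiac muscle markers overlap between the tissues.

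Adm RNA was at 11.87, 12.07 and 12.42 (log2 intensity) in carotid body arrays 1, 2 and 3 and at 10.69, 10.70 and 11.27 in the adrenal medulla arrays. Every carotid body array lay above every adrenal medulla array, and in both tissues the pool of cohort 3 was highest. The means were 12.12 ± 0.28 and 10.89 ± 0.33 (SD, n = 3), which is 1.24 ± 0.21 apart (SE; adjusted p = 0.0051), or 2.35-fold. The within-cohort differences were close to each other, at 1.18, 1.37 and 1.15. That probe set, 1447839_x_at, carries the suffix that marks possible cross-hybridisation. The other, 1416077_at, read 10.91, 11.40 and 11.88 in carotid body, against 10.12, 10.60 and 10.80 in adrenal medulla. It gave 0.89 ± 0.27 (SE; adjusted p = 0.0497), or 1.85-fold, which is the same direction without overlap but under the 2-fold limit. Without carotid body array 1 the difference of the brightest probe set was 1.36 (adjusted p = 0.0064).

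The partners of adrenomedullin differed by receptor subunit. Ramp2, the subunit of an adrenomedullin receptor, was at 9.73, 10.11 and 10.11 in carotid body, against 8.15, 8.65 and 8.33 in adrenal medulla, with no overlap. It was 3.05-fold higher in carotid body, a difference of 1.61 ± 0.17 (SE; adjusted p = 0.00073). Ramp1, the subunit of the CGRP receptor, went the other way, at 9.52, 9.01 and 8.56 in carotid body, against 11.47, 11.95 and 11.82 in adrenal medulla. Its difference was -2.72 ± 0.25 (SE; adjusted p = 0.000365), 6.57-fold. Another Ramp1 probe set, 1431413_at, gave -2.52 (adjusted p = 0.0015), and 1447474_at was dim and gave -0.05. Ramp3 differed by 0.12, with a 95% interval of -0.35 to 0.59. The shared receptor chain Calcrl was at 9.85, 9.17 and 9.75 in carotid body, against 8.72, 8.67 and 8.81 in adrenal medulla; its difference of 0.86 ± 0.19 (SE; adjusted p = 0.014) was under 2-fold. It was 1.06 without carotid body array 2 (adjusted p = 0.0034), 0.82 without adrenal medulla array 2 (adjusted p = 0.061) and 0.30 with its probe sets averaged (adjusted p = 0.076). The other Calcrl probe sets, 1418489_a_at and 1459536_at, were dim and gave 0.14 and -0.11.

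Of 10 measured genes of the adrenomedullin and CGRP family beyond Adm, 1 was called in each direction. Over all genes 5.91% were called toward carotid body and 6.08% toward adrenal medulla. The median difference of the 10 genes was 0.04. Crcp, a component linked to CGRP receptor signalling, differed by -0.98 ± 0.17 (SE; adjusted p = 0.006), just under 2-fold. It passed 2-fold with arrays centred on their medians (-1.09), without carotid body array 3 (-1.11) and without adrenal medulla array 3 (-1.04). In the other settings Crcp stayed under 2-fold, down to -0.82 without carotid body array 1. Pam, the enzyme that amidates adrenomedullin and many other peptides, was at 10.12 to 10.19 in carotid body, against 10.43 to 10.82 in adrenal medulla and differed by -0.41 (adjusted p = 0.071). Adm2, a related peptide gene, differed by 0.46 (adjusted p = 0.039), under 2-fold, and Ackr3, an atypical receptor that binds adrenomedullin, by -0.61 (adjusted p = 0.36). Calcb and Calcr were near the lower end of the scale in both tissues, and Calca is not analysed here. Markers of endothelium, which is known to make Ramp2 and Calcrl, had summed levels of 12.45 to 12.77 in carotid body, against 11.73 to 12.04 in adrenal medulla. Of the 10 markers Cldn5 and Cdh5 were called, at 3.97 and 1.28, and the other 8 ranged from -0.51 for Emcn to 0.88 for Pecam1. The part of endothelial RNA in the Adm, Ramp2 and Calcrl values was not tested.

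Edn1 RNA, read by 1 probe set, was at 7.73, 6.92 and 7.52 in carotid body, against 5.45, 4.63 and 5.01 in adrenal medulla. The lowest carotid body array, of cohort 2, lay above the highest adrenal medulla array, of cohort 1. The means were 7.39 ± 0.42 and 5.03 ± 0.41 (SD, n = 3), which differ by 2.36 ± 0.27 (SE; adjusted p = 0.00091). Within cohorts 1, 2 and 3 the difference was 2.28, 2.29 and 2.51, and cohort 2 was lowest in both tissues. Without carotid body array 1 the difference was 2.19 (adjusted p = 0.0025). Among the endothelial markers 2 of 10 were called toward carotid body, beside 5.91% of all genes, and the median difference was 0.32. The part of endothelial RNA in the Edn1 value was not tested.

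Edn3 RNA was read by 4 probe sets, and all 4 were called higher in adrenal medulla. The brightest, 1438696_at, was at 6.54, 6.68 and 5.21 in carotid body, against 9.21, 10.20 and 10.08 in adrenal medulla, and the tissues did not overlap. Means were 6.14 ± 0.81 and 9.83 ± 0.54 (SD, n = 3), giving -3.69 ± 0.42 for the difference (SE; adjusted p = 0.00093), or 12.9-fold. Carotid body array 3 was lowest, and the within-cohort differences were -2.68, -3.52 and -4.86 for cohorts 1, 2 and 3. The noradrenaline-making enzyme gene Dbh was lowest in the same array on each of its probe sets. Its brightest read 7.86 there, against 10.20 and 10.23 in carotid body arrays 1 and 2. Of the other catecholamine cell markers, Chgb was lowest in array 3, Th lay between, and Chga, Slc18a1, Slc18a2 and Hand2 were highest. The summed level of these markers was 14.79, 15.03 and 14.89 in carotid body arrays 1, 2 and 3. Without carotid body array 3 the Edn3 difference was -3.22 (limma adjusted p = 0.00049), and without array 1 it was -3.88 (adjusted p = 0.002).

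The other Edn3 probe sets had the same direction and differed in size. Probe set 1441923_s_at gave -3.60 ± 0.27 (SE; adjusted p = 0.00015), with carotid body at 5.35, 5.34 and 4.70 and adrenal medulla at 8.24, 9.13 and 8.82. Probe set 1421136_at gave -2.98 ± 0.31 (adjusted p = 0.0006), and its carotid body values of 4.24 to 4.67 were close to the lower end of the scale. The smallest difference, -1.75 ± 0.35 (SE; adjusted p = 0.0095), came from 1441924_x_at, whose suffix marks possible cross-hybridisation. It read 6.88, 7.42 and 5.93 in carotid body, against 8.23, 8.65 and 8.60 in adrenal medulla. Cortex markers were abundant in the adrenal medulla pools, and their part in the Edn3 difference was not tested.

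**Figure D3:**
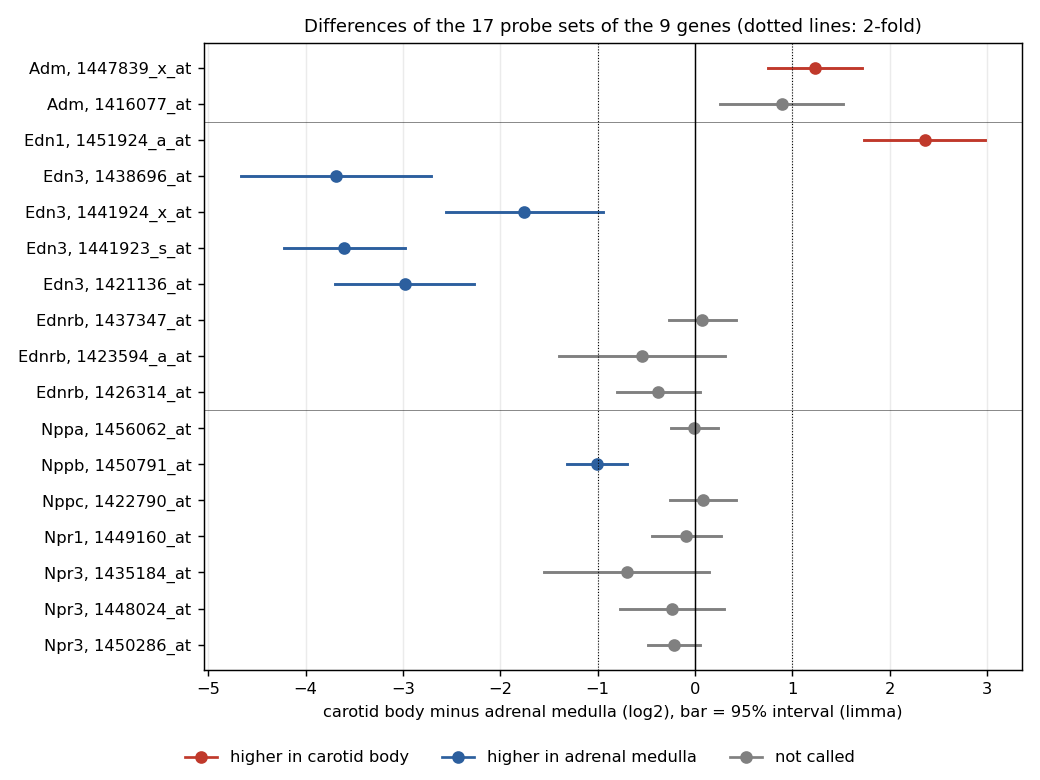
Carotid body minus adrenal medulla difference (log2, horizontal axis) of each of the 17 probe sets, with its 95% interval from limma. The 4 Edn3 probe sets and Nppb lie left of -1, Edn1 lies at 2.36, and 1 of the 2 Adm probe sets lies past 1.

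The endothelin ligands were also compared within each array, which cancels any scaling of the whole array. The log2 ratio of the Edn1 to the Edn3 signal was 1.19, 0.24 and 2.31 in carotid body arrays 1, 2 and 3 and -3.76, -5.57 and -5.07 in adrenal medulla. The ratio shifted by 6.05 between the tissues, with no overlap (exact permutation test, two-sided, p = 0.1, the smallest that 3 against 3 allows; 0.2 adjusted over the 2 ratios tested). Edn1 and Edn3 each separated the tissues, in opposite directions. The lack of overlap and this p therefore follow from the differences already given and are no separate evidence. Only the shift can be read, since signals of different probe sets are not on 1 scale.

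Ednrb, the receptor for both peptides, was not called on any of its 3 probe sets. The brightest read 9.01, 8.60 and 8.89 in carotid body, against 8.62, 8.75 and 8.90 in adrenal medulla, and these overlapped. Its difference was 0.08 ± 0.15 (SE; adjusted p = 0.76), with a 95% interval of -0.26 to 0.42, so that a 2-fold difference lies outside the interval. It was -0.04 with arrays centred on their medians and -0.01 without carotid body array 1. The dimmer probe sets 1423594_a_at and 1426314_at gave -0.54 and -0.38 (adjusted p = 0.35 and 0.19), and the interval of the first, -1.40 to 0.31, reaches past 2-fold. Schwann cell and glial markers, a cell type in which Ednrb is known, were higher in carotid body for 6 of 6 measured genes with a median of 2.13, and summed to 13.21 to 13.33 there, against 10.75 to 11.01; their part in the Ednrb value was not tested.

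Of 6 further endothelin genes 0 were called by limma, beside 12.0% of all genes, and their median difference was -0.08. At an unadjusted p under 0.05 there were 2 of 6, beside 39.1% of all genes. Ece1, which cuts big endothelin, read 9.98, 10.03 and 10.00 in carotid body, against 9.78, 9.75 and 9.68 in adrenal medulla. The tissues did not overlap and differed by 0.27 ± 0.10 (SE; adjusted p = 0.11). The other Ece1 probe sets, 1434177_at and 1441423_at, gave -0.34 and 0.54, and neither was called. Ece2, a related converting enzyme, differed by -0.56 (adjusted p = 0.26) and by -0.17 without carotid body array 1; a second probe set, 1423358_at, gave -0.89 (adjusted p = 0.011). Mme, the peptidase neprilysin that degrades endothelins and natriuretic peptides, read 6.40, 4.32 and 5.19 in carotid body, against 4.16 to 4.72 in adrenal medulla. Its difference of 0.84 (adjusted p = 0.25) was 0.29 without carotid body array 1 and 1.33 without array 2 (adjusted p = 0.54 and 0.054). Edn2, the remaining ligand gene, was dim, at 3.80 to 3.94 in carotid body, against 4.05 to 4.31 in adrenal medulla (adjusted p = 0.098).

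Nppb was the natriuretic peptide gene that differed. It read 4.30, 4.49 and 4.22 in carotid body, against 5.24, 5.27 and 5.52 in adrenal medulla, with little spread within a tissue and no overlap. The means were 4.34 ± 0.14 and 5.34 ± 0.15 (SD, n = 3), giving -1.01 ± 0.13 for the difference (SE; adjusted p = 0.0018), or 2.01-fold. This lies at the 2-fold limit: the difference was -0.99, -0.95 and -0.92 without carotid body array 1, carotid body array 3 and adrenal medulla array 3, with an adjusted p of at most 0.0103 without any 1 array. The signal was low in both tissues, where intensities on this scale are compressed. Nppa, whose gene lies beside Nppb, read 3.68 to 3.78 in carotid body, against 3.69 to 3.79 in adrenal medulla and differed by -0.01 (95% interval -0.25 to 0.24; adjusted p = 0.98). Nppc read 3.73 to 4.02 and 3.64 to 4.01 and differed by 0.08 (95% interval -0.26 to 0.42; adjusted p = 0.75).

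Nppa and Nppc lay at the 16.7th and 19.9th percentile of the mean intensity over all probe sets, where low expression and no expression look alike. Heart muscle is the main source of atrial and B-type peptides, and each of the 8 cardiac markers stayed under 6 on every array, from 3.12 for Myh6 to 5.89 for Tnnt2. The 8 cardiac markers summed to 7.34 to 7.60 in carotid body, against 7.36 to 7.66 in adrenal medulla. Of them 1 was called, Tnnt2, at -1.25, the direction of Nppb, while Actc1 differed by 0.62 (adjusted p = 0.03), under 2-fold; the part of these genes in the Nppb value was not tested.

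Neither natriuretic peptide receptor among the members was called. Npr1 read 5.70, 5.63 and 5.43 in carotid body, against 5.80, 5.82 and 5.40 in adrenal medulla, which overlapped. Its difference was -0.09 ± 0.15 (SE; adjusted p = 0.74; 95% interval -0.44 to 0.27). Npr3, on its brightest probe set, read 6.05, 5.35 and 6.14 in carotid body, against 7.35, 6.28 and 6.01 in adrenal medulla. Adrenal medulla array 1 stood above the rest, and the difference of -0.70 ± 0.36 (SE; adjusted p = 0.22; 95% interval -1.55 to 0.14) was -0.30 without it. The other Npr3 probe sets, 1448024_at and 1450286_at, gave -0.24 and -0.22, and neither was called. The log2 ratio of Npr1 to Npr3 signal shifted by 0.61 between the tissues (exact permutation test, two-sided, p = 0.3; 0.3 adjusted over the 2 ratios).

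Of the cyclic GMP genes downstream of these receptors, Prkg2 was called toward adrenal medulla and Pde5a and Pde9a toward carotid body. Of 9 measured genes of the natriuretic peptide and cyclic GMP list, 3 were called toward carotid body, beside 5.91% of all genes. Toward adrenal medulla 1 was called, beside 6.08%, and the median difference was -0.05. The list also holds the receptor gene Npr2 and the protease genes Corin, Furin and Pcsk6. Prkg2, cyclic GMP-dependent protein kinase type II, was called on all 3 of its probe sets. The brightest read 8.01, 8.04 and 7.42 in carotid body, against 9.78, 9.97 and 10.20 in adrenal medulla, a difference of -2.16 ± 0.20 (SE; adjusted p = 0.00038), and the others gave -2.46 and -3.40. Prkg1, the type I kinase of smooth muscle, differed in the opposite direction by 0.94 ± 0.14 (SE; adjusted p = 0.003), just under 2-fold. It was 1.05 after quantile normalization and 1.02 when either carotid body array 1 or adrenal medulla array 3 was left out. It was 0.83 with arrays centred on their medians, 0.84 without adrenal medulla array 1 and 0.61 with its probe sets averaged. Its second probe set, 1449876_at, gave 0.29.

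The phosphodiesterases Pde5a and Pde9a, which break down cyclic GMP, were higher in carotid body. Pde5a read 10.42, 9.98 and 10.35 in carotid body, against 9.35, 8.43 and 8.57 in adrenal medulla. Its difference was 1.47 ± 0.25 (SE; adjusted p = 0.0055) on this probe set, which has the cross-hybridisation suffix, and 1.17 on the called probe set 1455970_at; probe set 1460118_at gave 0.73. Pde9a differed by 1.10 ± 0.19 (SE; adjusted p = 0.0053) at low signal; it was 0.98 with arrays centred on their medians, and leaving out carotid body array 3 or adrenal medulla array 1 gave 0.97 and 0.98. Pcsk6, a proprotein convertase known to act on corin, was 2.41-fold higher, at 1.27 ± 0.16 (SE; adjusted p = 0.0013). Corin itself, the enzyme that cuts the atrial peptide precursor, was near the lower end of the scale in both tissues. Furin and Pde2a differed by -0.14 and -0.28 and were not called, and Ostn is not analysed here. Npr2, the receptor of C-type peptide, gave -0.53, with an adjusted p of 0.11, and of 0.044 when cohort was a block; without adrenal medulla array 2 it gave -0.31 (adjusted p = 0.28). Smooth muscle and pericyte markers summed to 15.25 to 15.42 in carotid body, against 12.65 to 13.19 in adrenal medulla, with Acta2 and Myh11 at 3.84 and 3.85; their part in the Pde5a and Prkg1 values was not tested. Over all 25 measured partner genes, 4 were called toward carotid body, beside 5.91% of all genes, and 2 toward adrenal medulla, beside 6.08%. Their median difference was 0.00, beside -0.04 for all genes.

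**Figure D4:**
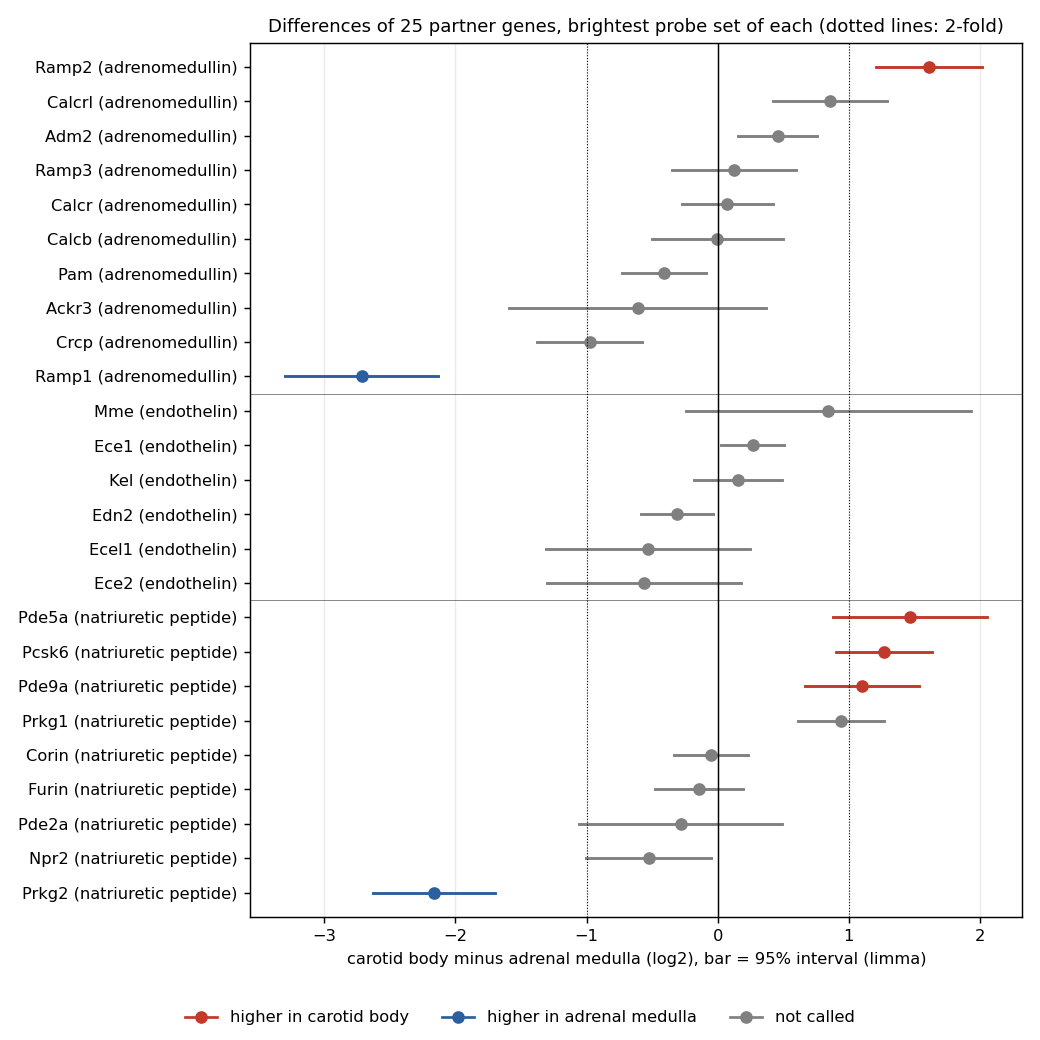
Carotid body minus adrenal medulla difference (log2, horizontal axis) of the 25 measured partner genes, each by its brightest probe set with its 95% interval from limma, grouped by system. Ramp2, Pde5a, Pcsk6 and Pde9a are called higher in carotid body while Ramp1 and Prkg2 are called in the other direction; the endothelin group has none.

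The genes most like Edn3, Edn1 and Adm were those with the smallest Euclidean distance over the 6 arrays, each gene centred on its own mean, among 18192 other genes. For Edn3 they were Dmkn, Insm2 and Vdr, at distances of 0.63, 0.64 and 0.69, with differences of -4.03, -3.69 and -3.54. For Edn1 they were Foxp2 at a distance of 0.32, Nr2f1 at 0.55 and Anxa1 at 0.59, with differences of 2.24, 2.48 and 2.63. For Adm they were Gpsm2, Kansl1l and Cnr1, at 0.22, 0.23 and 0.31, with differences of 1.18, 1.32 and 1.41. With 2 tissues and 6 arrays this likeness is mostly the size of the tissue difference.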

How the data were processed

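Per the submitters' processing notes, the authors processed the arrays with Affymetrix Expression Console; version, summarisation and any normalization: not given in the sources used here. The values the authors deposited are log2 intensities, 1 for each probe set on an array; the log scale was read from the values. No further normalization was applied. After removal of 64 control probe sets from 45101, 45037 were tested. The 2016 platform annotation gives 1 symbol to 34945 of them, several to 932 and none to 9160. The comparison used limma (version 3.58.1; R 4.3.3), with lmFit and eBayes on all 6 arrays and no block, tested on simulated data first; p-values are two-sided. A gene is read by its probe set with the highest mean over the 6 arrays. All 9 measured members are named; of partner genes, those called and the 2 largest differences not called per system, with others named after their values were seen. Members and lists were chosen with earlier results of these data known. Cohort pairing comes from the series' statement on cohorts; deviations from tissue means correlated at 0.22, 0.08 and 0.16 for same-numbered pools and -0.21 to 0.10 for others. No detection calls were used, and 3 arrays per tissue limit the precision. Promoter sequences are RefSeq's; the array files name no build.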

Additional observations from a re-analysis of the deposited data

How the results depend on the processing

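Adm, Edn1 and Edn3 kept their direction and their call under every alternative run, except Adm on its probe set without a cross-hybridisation suffix (chosen after seeing the data), where 1 member in place of 2 was called higher in carotid body. With array weights Nppb fell under 2-fold (-0.99) and 1 member was called higher in adrenal medulla; leaving out single arrays gave 1 to 2. With the adjusted p alone, 5168 and 5576 probe sets were called higher in carotid body and adrenal medulla, against 2680 and 2064, and 7 partner genes were higher in carotid body, against 4. With the cohort as a replicate block 2737 and 2108 probe sets were called, the Edn1 to Edn3 shift had an exact permutation p of 0.25, the smallest that 3 pairs allow, and no named gene changed its call. With arrays centred on their medians, the median over all probe sets went from 0.01 to -0.11 and the share of called probe sets higher in carotid body from 56.5% to 46.0%. Ednrb and Nppc, not called, changed sign under that centring and without carotid body array 1, Ednrb also with probe sets averaged, and Nppa when array 2 or 3 of carotid body or array 3 of adrenal medulla was left out. With dim probe sets left out, Nppa and Nppc had no value. The depth of signal limits Nppa, Nppc and Nppb most.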
